A study of Mus musculus with 55 samples.

Results

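Liver endothelium was compared between 2 sorts from the same organ, one labelled endothelial cell (EC) and one labelled liver sinusoidal endothelial cell (LSEC). The comparison rests on 5 of the study's 55 RNA-sequencing libraries: 2 EC and 3 LSEC libraries from the liver of C57B/L6 mice labelled normal, sorted by fluorescence-activated cell sorting into TRIzol. Every library of the study came from that strain, and the other 8 normal sorts were cBEC, BEC, NPD, hepatocytes (HC), blood, Thy1, Kupffer cells (KC) and hepatic stellate cells (HSC), using the abbreviations of the labels. The same 2 endothelial sorts were also taken after partial hepatectomy (PH), with 3 EC and 5 LSEC libraries. The labels give neither the surface markers of the gates, the ages and number of animals, nor the time after surgery, and nothing says that the replicates came from separate animals. P-values therefore measure only the spread between these libraries, which may be technical.

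All genes of the deposited table entered, each gene symbol being represented by its row of highest mean across the 55 libraries. Of 24478 symbols, 11868 reached at least 1 FPKM (fragments scaled to transcript length and library size) in at least 2 of the 5 libraries and were tested. FPKM sums ranged from 656989 to 692890 across the 5 libraries. Read depth is unknown, so no counting error can be attached to single values, and their number of libraries limits the precision.

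Sinusoidal endothelial cells line the liver's exchange capillaries. They are fenestrated, rest on little basement membrane and clear macromolecules from blood through scavenger and lectin receptors such as Stab2 and Lyve1. Endothelium of arteries, portal veins and central veins is continuous and holds von Willebrand factor (Vwf) and Cd34. Along the sinusoid, cells near the central vein carry the receptor tyrosine kinase Kit and secrete Wnt2, Wnt9b and Rspo3, which act on neighbouring hepatocytes.

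Kit was the gene with the smallest p-value in the 5 libraries, and the promoter windows of Kit, of Wnt2, whose levels followed Kit most closely over the sorts, and of Cd34, which was higher in EC, are printed for orientation. Each window is the 250 bases before the RefSeq start in GRCm38.p6, read 5′ to 3′ on the gene's strand. They lie at chr5:75574737-75574986 on the plus strand (Kit, the first of 2 RefSeq entries), chr6:18030446-18030695 on the minus strand (Wnt2) and chr1:194938571-194938820 on the plus strand (Cd34). Capitals mark the ETS-type motif AGGAAG or its other strand CTTCCT. Of the letters recognised by GATA factors, only AGATAA and its other strand TTATCT were searched in the same way.
Kit: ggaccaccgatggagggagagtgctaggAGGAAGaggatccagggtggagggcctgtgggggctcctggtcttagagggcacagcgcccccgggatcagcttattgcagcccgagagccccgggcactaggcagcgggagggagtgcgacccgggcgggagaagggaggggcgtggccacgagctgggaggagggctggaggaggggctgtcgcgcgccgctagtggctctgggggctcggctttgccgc
Wnt2: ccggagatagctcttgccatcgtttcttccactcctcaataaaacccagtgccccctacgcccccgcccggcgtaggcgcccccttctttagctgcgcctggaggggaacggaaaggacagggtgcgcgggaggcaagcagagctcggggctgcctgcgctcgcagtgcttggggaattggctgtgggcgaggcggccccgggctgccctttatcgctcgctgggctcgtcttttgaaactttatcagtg
Cd34: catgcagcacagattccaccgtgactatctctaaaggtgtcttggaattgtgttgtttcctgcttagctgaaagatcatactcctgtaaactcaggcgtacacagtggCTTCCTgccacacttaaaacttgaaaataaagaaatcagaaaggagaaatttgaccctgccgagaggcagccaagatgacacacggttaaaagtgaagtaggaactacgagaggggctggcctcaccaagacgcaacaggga
The Kit and Cd34 windows held 1 ETS-type motif each, and the Wnt2 window held none. No window held AGATAA or TTATCT, and other forms of the GATA core were not searched, so their absence is not stated. Among 27025 promoter windows of the same length, 29.2% held the ETS-type motif and 10.3% held AGATAA or TTATCT. A match is a description of letters only.

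Both sorts carried the pan-endothelial programme at high level, and both also carried sinusoidal genes. Pecam1, an adhesion molecule of endothelial junctions, was at 800 and 737 FPKM in EC and at 614, 583 and 715 FPKM in LSEC. Stab2, the hyaluronan and scavenger receptor of sinusoids, was at 383 and 198 FPKM in EC and at 725, 1107 and 513 FPKM in LSEC. The EC sort was thus not free of sinusoidal marker RNA, although its 2 values lay below all 3 LSEC values. Vwf, which builds the platelet-binding multimers of larger vessels, was at 289 and 997 FPKM in EC and at 54.3, 0.311 and 272 FPKM in LSEC. LSEC library 3 came close to EC library 1 in Vwf, and LSEC library 2 was nearly free of it. In bulk sorts, fewer cells of a type and less RNA per cell cannot be told apart.

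Of 14 hepatocyte markers, 9 were listed at 0 in all 5 libraries, among them Alb and Apoa1. Exact zeros were counted for genes with a mean of 10 FPKM or more in at least 3 normal sorts other than HC, EC and LSEC. Among these, zeros took 7.88% of the values of genes at 300 FPKM or more in normal hepatocytes. They took 1.10% for those under 10 FPKM there, so a 0 for a hepatocyte gene is only a listed value. The libraries did not fall into 2 clean blocks: across the tested genes, Pearson's r of log2 values was 0.957 between the EC libraries, 0.952 between EC library 1 and LSEC library 1, and 0.902 between LSEC libraries 2 and 3. These are correlations across genes, which are not independent replicates.

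**Figure D1:**
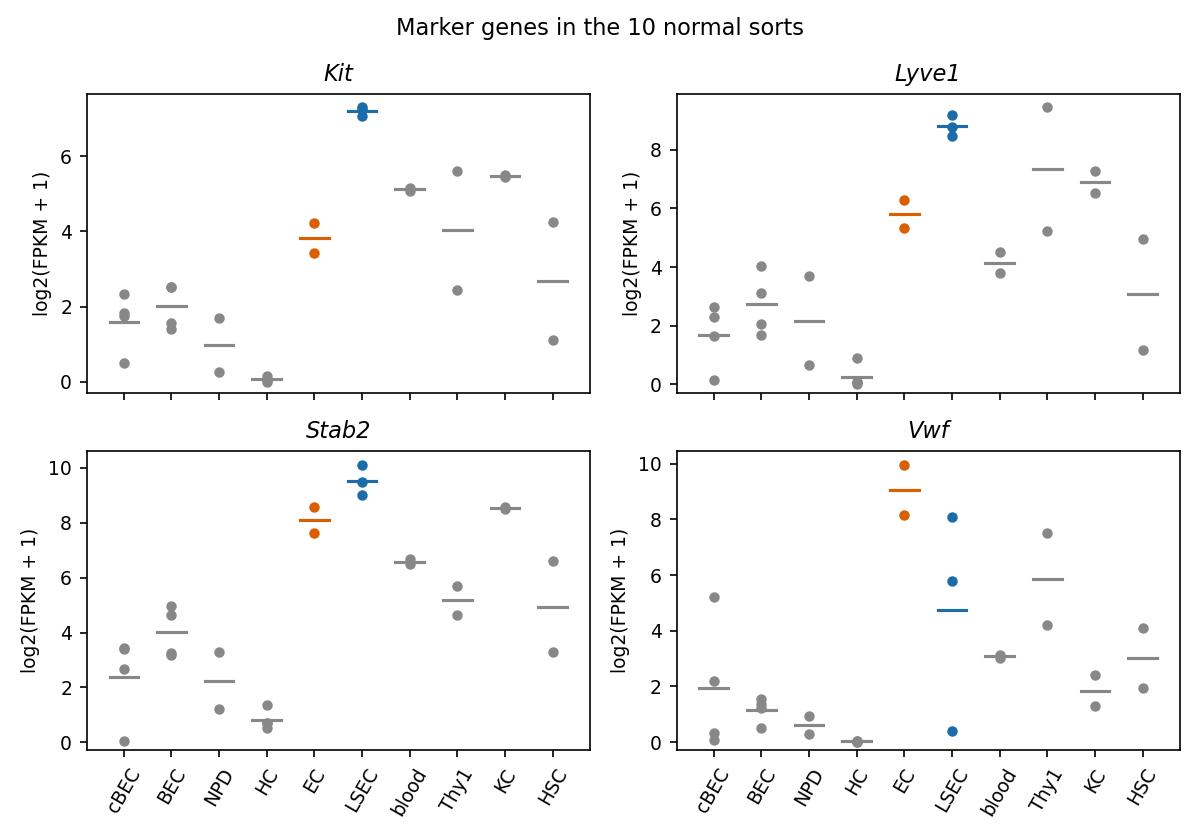
Levels of Kit, Lyve1, Stab2 and Vwf in the 27 libraries of the 10 normal sorts, as log2(FPKM + 1) on the vertical axes, with 1 point for each library and a bar at each sort's mean (EC orange, LSEC blue, other sorts grey). Kit, Lyve1 and Stab2 have their highest mean in LSEC and Vwf in EC, and 1 LSEC library lies near 0 for Vwf.

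Kit (table coordinates 5, 75971015 to 76052746, plus strand; the submitters' processing notes name mm9), the receptor for stem cell factor, was at 17.8 and 9.67 FPKM in EC and at 134, 153 and 158 FPKM in LSEC. All 3 LSEC libraries stood far above both EC libraries. The means were 13.8 ± 5.78 FPKM (SD, n = 2) and 148 ± 12.4 FPKM (SD, n = 3), a 10.8-fold difference. On the log2(FPKM + 1) scale, used for every difference below and given as EC minus LSEC, this was -3.39 (SE 0.26, limma adjusted p 0.0422 from the 5 libraries alone). Kit was the 1 gene of 11868 called at an adjusted p under 0.05 in that fit (0.00843%), where 1097 genes (9.24%) had an unadjusted p under 0.05. Without LSEC library 1, 2 or 3 in turn, limma's adjusted p for Kit was 0.230, 0.138 and 0.131, and the log2 difference stayed between -3.80 and -2.98 in all 14 alternatives.

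Among the other normal sorts, Kit was at a mean of 43.3 FPKM in KC, 33.8 FPKM in blood and 26.2 FPKM in Thy1, where the 2 libraries stood at 4.48 and 47.9 FPKM. The remaining sorts were below the EC mean. The LSEC libraries did not overlap any other normal sort, whereas the EC libraries overlapped those of Thy1 and HSC. Kit also marks mast cells and blood progenitors. The list of 13 mast cell and progenitor markers summed to 86.6 and 109 FPKM in EC and to 80.7, 57.1 and 112 FPKM in LSEC, against a mean of 1168 FPKM in blood. Most of each sum was Hdc, the histidine decarboxylase, at 80.1 and 109 FPKM in EC and at 73.5, 44.3 and 111 FPKM in LSEC. Mcpt4, Tpsb2, Cma1 and Ctsg were listed at 0 in all 5, and 0 of the 3 markers tested were called. The part of these cells in the Kit difference was not tested. After PH, Kit was at 34.2, 13.9 and 28.3 FPKM in EC and between 264 and 453 FPKM (median 361) in the 5 LSEC libraries, again without overlap. The difference between sorts did not pass the test of a change with PH (log2 difference of differences -0.44, SE 0.45, limma adjusted p 0.910). That test, over 13 libraries, called 1 gene of 12824 (0.0078%), Serpinb2, higher in EC after PH, with 921 genes (7.18%) at an unadjusted p under 0.05. Serpinb2 passed the filter through the PH EC libraries alone.

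Over the 10 normal sort means, the genes with the highest Pearson correlation with Kit among 7112 compared were Wnt2 (r 0.970), Jak3 (r 0.953), Pde2a (r 0.949), Insl3 (r 0.947) and Vav3 (r 0.943). Wnt2, a secreted ligand of Wnt receptors, was at 41.4 and 18.6 FPKM in EC and at 144, 243 and 203 FPKM in LSEC. Its groups did not overlap, and its log2 difference of -2.75 (SE 0.79) did not pass the test (limma adjusted p 0.0899 with the spread of 10 sorts). Pde2a, a phosphodiesterase of cyclic nucleotides, was at 290 and 234 FPKM in EC and at 516, 554 and 452 FPKM in LSEC. Jak3 and Insl3 share sequence in the table (8, 74200281 to 74214476 and 8, 74213150 to 74214476, both plus strand), so their values cannot be separated with certainty. Vav3, a guanine nucleotide exchange factor, spanned 10.9 to 14.3 FPKM in EC and 16.2 to 21.4 FPKM in LSEC.

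With 3 residual degrees of freedom, the 5-library fit has little information on the spread. A second limma fit took the spread from all 27 normal libraries of the 10 sorts (17 residual degrees of freedom) and kept the same contrast and the same genes. It called 189 genes (1.59%), 118 higher in EC (0.994%) and 71 higher in LSEC (0.598%), with 1135 (9.56%) at an unadjusted p under 0.05. The 2 groups of libraries did not overlap in 187 of the 189. This fit assumes that EC and LSEC libraries vary like the other sorts, and its calls rested heavily on single libraries. Without EC library 2 it called 5 genes, without LSEC library 2 it called 76, and without LSEC library 3 it called 348. In a fit limited to the 4 endothelial groups, normal and PH, 78 genes were called, 23 higher in EC and 55 higher in LSEC. Over all tested genes, 13.3% had both EC libraries above all LSEC libraries and 11.9% had both below, and the median log2 difference was 0.02.

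From the called genes, 12 in each direction were taken by size among those without overlap, at 10 FPKM or more in the higher sort and under 10 FPKM in hepatocytes (53 and 30 genes qualified). Leaving out EC library 2 left 0 of the 22 that could still be tested called. Leaving out EC library 1 left 15 of 22, LSEC library 1 left 22 of 24, LSEC library 2 left 12 of 24 and LSEC library 3 left 18 of 24. Dkk3 lost its call in 12 of its 16 alternatives and Nrg1 in 10. In the fit limited to the 4 endothelial groups, 9 of the 24 stayed called, 3 higher in EC and 6 higher in LSEC. Direction was kept for all 24 in every alternative run.

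Of the 12 genes named as higher in EC, Cmklr1, Syt15, Ly6c1, Nrg1 and Col8a1 had their highest normal mean in EC and the other 7 in another sort. Cd34, a sialomucin of vessel and stromal cells, was at 126 and 181 FPKM in EC and at 23.5, 1.003 and 16.5 FPKM in LSEC. The mean was 11.2-fold higher in EC, with no LSEC library near either EC library (log2 difference 3.999, SE 0.72, limma adjusted p 0.00604). Its highest normal means were in Thy1 (343 FPKM) and NPD (322 FPKM). Cmklr1, the chemerin receptor, was at 107 and 174 FPKM in EC and at 12.7, 0.190 and 35.2 FPKM in LSEC (log2 difference 4.03, SE 0.85, limma adjusted p 0.0169). It was also at a mean of 109 FPKM in KC. Kupffer markers summed to 159 and 72.4 FPKM in EC and to 566, 286 and 109 FPKM in LSEC, and their part in this difference was not tested. Nrg1, a ligand of ErbB receptors, was at 52.2 and 89.5 FPKM in EC and at 8.21, 0.0198 and 22.0 FPKM in LSEC (log2 difference 3.53, SE 0.89, limma adjusted p 0.0477). LSEC was the sort with the next highest Nrg1 mean, 10.1 FPKM. In each of these genes LSEC library 2 had the lowest value.

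Syt15, a member of the synaptotagmin family, was at 11.1 and 24.3 FPKM in EC and at 0.540, 0 and 0.442 FPKM in LSEC. Its log2 difference was 3.75 (SE 0.44, limma adjusted p 9.63e-05). Every LSEC library was under 1 FPKM, so Syt15 passed the filter through EC alone and its difference was fixed in part by the filter. It was called in the 14 alternatives that tested it, which is therefore not read as support. It could not be tested without either EC library, where it fell under the filter. The sort with the next highest mean was Thy1, at 5.28 FPKM. Ly6c1, a membrane protein anchored by lipid, was at 60.5 and 64.2 FPKM in EC and at 7.05, 0 and 16.3 FPKM in LSEC (log2 difference 3.61, SE 0.83, limma adjusted p 0.0295). Reads of Ly6c1 could be split with its near-identical neighbour Ly6c2. Prkcdbp (Cavin3), a coat protein of caveolae, was at 33.1 and 50.8 FPKM in EC against 0.0298 to 9.01 FPKM in LSEC. Npr3, the clearance receptor of natriuretic peptides, was at 16.7 and 40.7 FPKM against 0.110 to 4.89 FPKM. Lmo7, a junction-associated protein, was at 30.02 and 40.4 FPKM against 0.0319 to 9.85 FPKM, and Col8a1, a short-chain collagen, at 11.3 and 16.1 FPKM against 0.0100 to 1.77 FPKM. These 4 had log2 differences of 2.91 to 3.39, and the groups did not overlap. Prkcdbp and Lmo7 had their highest normal mean in NPD (222 and 48.4 FPKM) and Npr3 in HSC (41.95 FPKM).

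The other 3 genes stood high mainly in EC library 2. Upk3b, a marker of mesothelium, was at 4.68 and 72.2 FPKM in EC and at 2.59, 0.0481 and 0.499 FPKM in LSEC. Igfbp6, a binding protein for insulin-like growth factor II, was at 5.77 and 70.9 FPKM in EC and at 0.0270 to 3.38 FPKM in LSEC, and Gpc3, a cell-surface proteoglycan, at 2.88 and 21.4 FPKM against 0.0186 to 0.303 FPKM. Gpc3 was under 1 FPKM in every LSEC library and passed the filter through EC alone, so its difference was fixed in part by the filter. EC library 1 was close to LSEC library 1 in Upk3b and Igfbp6. All 3 genes had their highest normal mean in NPD (2027, 2762 and 1129 FPKM). The 9 mesothelial markers summed to 118 and 297 FPKM in EC, to 114, 50.0 and 132 FPKM in LSEC and to a mean of 7562 FPKM in NPD. Of 118 genes called higher in EC, 37 had their highest normal mean in EC and 28 in NPD. Of all 11868 tested genes, 676 and 834 did, and the choice of genes higher in EC itself favours EC in this count. The part of other cells in these differences was not tested.

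The genes named as higher in LSEC include receptors and proteases. Cntfr, a receptor subunit for ciliary neurotrophic factor, was at 13.5 and 3.96 FPKM in EC and at 52.0, 72.2 and 29.98 FPKM in LSEC (log2 difference -2.54, SE 0.53, limma adjusted p 0.0141). Plau, the urokinase plasminogen activator, was at 9.30 and 6.86 FPKM in EC and at 33.9, 63.2 and 51.6 FPKM in LSEC (log2 difference -2.45, SE 0.58, limma adjusted p 0.0346). Both had their highest normal mean in LSEC, as did Rab3b. Adam19, a membrane metalloprotease, was at 5.01 and 2.08 FPKM in EC and at 14.6, 19.3 and 15.8 FPKM in LSEC (log2 difference -2.02, SE 0.30, limma adjusted p 0.000858). Gja1, the gap junction protein connexin 43, was at 30.5 and 15.9 FPKM in EC and at 62.3, 93.8 and 78.2 FPKM in LSEC (log2 difference -1.76, SE 0.33, limma adjusted p 0.00700). EC library 2 was the lower EC library in all 4, and no EC value reached an LSEC value. Adam19 had its highest normal mean in blood (52.2 FPKM) and Gja1 in NPD (194 FPKM).

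Rab3b, a GTPase of vesicle traffic, spanned 0.793 to 1.75 FPKM in EC and 4.72 to 16.7 FPKM in LSEC. Ackr4, an atypical chemokine receptor that removes ligands, spanned 4.52 to 11.3 FPKM and 24.1 to 44.1 FPKM. Pla2r1, the phospholipase A2 receptor, spanned 3.71 to 9.57 FPKM and 21.9 to 43.6 FPKM, Rerg, a small GTPase, 2.98 to 8.61 FPKM and 14.2 to 24.1 FPKM, and Dkk3, a secreted protein of the Dickkopf family, 1.27 to 4.04 FPKM and 7.72 to 15.6 FPKM. Log2 differences of these 5 lay between -2.27 and -1.77. Highest normal means were in HSC for Pla2r1 and Rerg (47.6 and 176 FPKM), in Thy1 for Ackr4 (50.6 FPKM) and in NPD for Dkk3 (30.98 FPKM). Of the 71 genes called higher in LSEC, 33 had their highest normal mean in LSEC and 14 in HSC. Of all 11868 tested genes, 943 and 916 did, and the choice of genes higher in LSEC itself favours LSEC in this count.

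**Figure D2:**
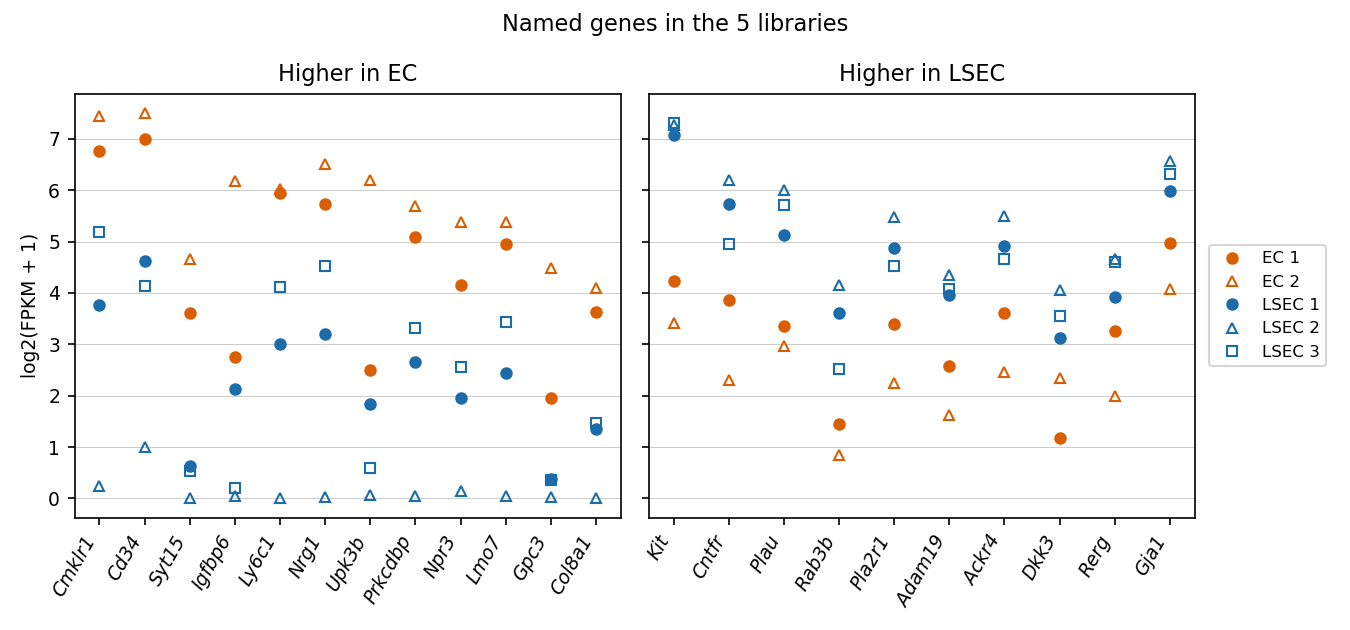
The 12 genes higher in EC and 10 of the 12 higher in LSEC, ordered by size of the difference, with log2(FPKM + 1) on the vertical axis and 1 symbol for each library (EC orange, LSEC blue). Groups do not overlap in any gene, LSEC library 2 is the lowest library on the left, and EC library 2 is the lowest for 9 of the 10 genes on the right.

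The PH libraries were not used in this contrast, and they give the same comparison in other samples. All 12 genes named as higher in EC had every PH EC library above every PH LSEC library, where 8.37% of all tested genes did. Of the 12 named as higher in LSEC, 8 did not overlap in the same direction, where 5.65% of all tested genes did; Cntfr, Pla2r1, Dkk3 and Rerg overlapped. Among all called genes, 92 of 118 (78.0%) higher in EC and 41 of 71 (57.7%) higher in LSEC kept non-overlapping groups after PH. Syt15 was at a mean of 19.5 FPKM in PH EC and 0.0982 FPKM in PH LSEC, and Rab3b at 3.52 and 65.0 FPKM.

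Markers of continuous vessels stood higher in EC as a group. Of 37 tested, 34 had the higher mean in EC and the median log2 difference was 1.13, against 0.02 over all genes. Without overlap were 22 with EC higher, where 13.3% of all genes were, and 0 with LSEC higher, where 11.9% were. Called higher in EC were 7, where 0.994% of all genes were called: Cd34, Ly6c1, the ephrin ligand Efnb1, the elastic-fibre protein Fbln5, the tyrosine kinase Bmx, the epoxide hydrolase Ephx1 and the alarmin Il33. The 7 calls became 1 with a pseudocount of 0.1, without EC library 1 or without LSEC library 2, 17 without LSEC library 3, and 0 without EC library 2 or in the fit limited to the 4 endothelial groups. Efnb1 was at 405 and 465 FPKM in EC and at 195, 54.6 and 219 FPKM in LSEC (log2 difference 1.70, SE 0.38, limma adjusted p 0.0243). Gja5 (connexin 40), an arterial gap junction protein, was at 86.6 and 192 FPKM in EC and at 13.2, 0.451 and 43.4 FPKM in LSEC, without passing the test (log2 difference 3.75, limma adjusted p 0.0719). Sdc1, a heparan sulfate proteoglycan, was at 104 and 155 FPKM in EC and at 19.1, 0.173 and 53.5 FPKM in LSEC. The list was not particular to endothelium. It summed to a mean of 11370 FPKM in EC and 6584 FPKM in LSEC, and to more in BEC (18259 FPKM), cBEC (17827 FPKM) and NPD (13449 FPKM). The part of other cells in the difference was not tested. The list's median log2 level was 6.45 and 6.67 in EC and 5.27, 3.65 and 5.93 in LSEC. LSEC library 2 had the lowest value of the 5 for 33 of the 37 genes, a share of 89.2% where all genes gave 26.3%.

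Sinusoidal markers went the other way in number, and 0 of 24 tested genes were called. Their mean was higher in LSEC for 21, and the median log2 difference was -0.85. Without overlap were 13 with LSEC higher (11.9% of all genes) and 1 with EC higher (13.3% of all genes). Lyve1, the hyaluronan receptor shared with lymphatic endothelium, was at 77.3 and 39.7 FPKM in EC and at 438, 580 and 353 FPKM in LSEC. The LSEC mean was 7.81-fold higher, and the log2 difference of -2.99 did not pass the test in either fit (limma adjusted p 0.0894 and 0.253). Clec1b, a C-type lectin receptor, was at 76.9 and 27.2 FPKM in EC and at 149, 189 and 115 FPKM in LSEC. Clec4g, the sinusoidal lectin LSECtin, overlapped: 2855 and 1155 FPKM in EC, and 3791, 4053 and 2390 FPKM in LSEC. Cd36, a fatty acid and thrombospondin receptor, was the 1 marker with both EC values above all LSEC values (925 and 1106 FPKM against 376 to 642 FPKM). EC library 2 was the lowest library for 20 of the 24 genes, and LSEC library 2 the highest for 17.

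**Figure D3:**
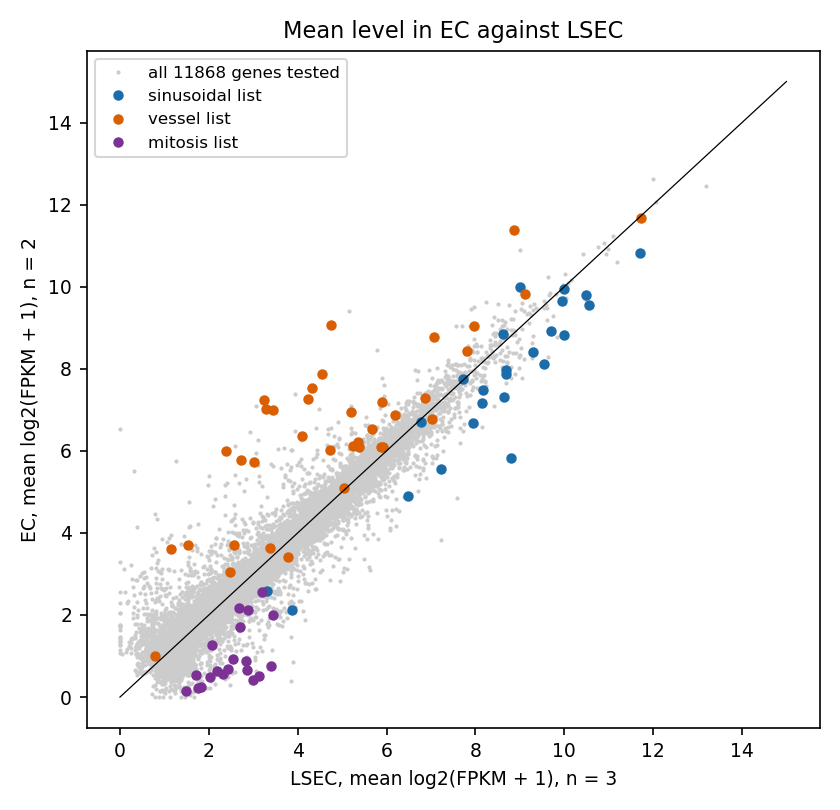
Mean log2(FPKM + 1) of each of 11868 tested genes in EC (vertical axis, n = 2) against LSEC (horizontal axis, n = 3), with a line of equal level. Vessel markers (orange) lie mostly above the line, sinusoidal markers (blue) mostly below it at high levels, and the 20 mitosis genes (purple) below it at low levels. Of the mitosis genes, 12 passed the filter through LSEC alone, so their place was fixed in part by the filter.

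The scavenger and endocytosis genes, which overlap the sinusoidal markers in part, had 0 of 26 called (median log2 difference -0.48). Without overlap were 14 higher in LSEC (11.9% of all genes) and 1 higher in EC (13.3% of all genes). Stab1, a scavenger receptor, was at 364 and 319 FPKM in EC and at 671, 733 and 511 FPKM in LSEC. Of the pan-endothelial genes, 1 of 24 was called, Cd34, and the median was 0.09. Kdr, the main VEGF receptor, was at 611 and 312 FPKM in EC and at 958, 1275 and 630 FPKM in LSEC, so that EC library 1 lay just under LSEC library 3. Of 12 lymphatic markers, 5 had all LSEC libraries higher, where 11.9% of all genes did. Of the 12, 2 had both EC libraries under 1 FPKM and passed the filter through LSEC alone, so the 5 are not read as a result. Called higher in EC was 1, where 0.994% of all genes were: Nts (neurotensin), at 3.39 and 2.01 FPKM in EC against 0 to 1.63 FPKM in LSEC. The Nts call was lost with a pseudocount of 0.1 (limma adjusted p 0.277). Mmrn1, a multimerin of lymphatic endothelium and platelets, was at 0.381 and 0.251 FPKM in EC and at 13.7, 0.993 and 101 FPKM in LSEC. LSEC library 3 alone was high, and the same library had the highest Thy1 (25.4 FPKM) and Reln (12.9 FPKM). Lymphatic Prox1 was under 5 FPKM in all 5.

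Genes known from the 2 ends of the sinusoid differed in opposite directions by number. Of 18 central-zone genes, 9 did not overlap with LSEC higher, where 11.9% of all genes did not, and 1 with EC higher, where 13.3% did not (median -0.59). Of all genes, 0.598% were called higher in LSEC and 0.994% higher in EC. Among the central-zone genes, Kit and Dkk3 were called higher in LSEC and Cyp1b1, a retinoid- and steroid-oxidising cytochrome, higher in EC. These 3 calls became 1 with no filter, with the filter of 5 FPKM or with the replicate block, and 0 with a pseudocount of 0.1 or without EC library 1, EC library 2 or LSEC library 2. Cyp1b1 was at 7.93 and 7.43 FPKM in EC and at 1.68, 0 and 2.51 FPKM in LSEC. The other central-vein ligands overlapped between the sorts: Rspo3 was at 123 and 46.7 FPKM in EC and at 190, 27.01 and 192 FPKM in LSEC, and Wnt9b at 34.5 and 20.5 FPKM and at 39.5, 12.98 and 65.8 FPKM. LSEC library 2, the highest in Wnt2, was the lowest in both, and the sign of both differences changed with single libraries left out. Of 20 portal-zone genes, 10 did not overlap with EC higher and 1 with LSEC higher (median 0.79), against the same 13.3% and 11.9% of all genes. Efnb1 was the 1 called, and the count ran from 0 without EC library 1, EC library 2 or LSEC library 2 to 6 without LSEC library 3. Mecom, a zinc-finger transcription factor, was at 80.3 and 108 FPKM in EC and at 38.9, 8.67 and 48.5 FPKM in LSEC. Chst2, a sulfotransferase, was the portal gene with LSEC higher, at 44.5, 34.1 and 16.0 FPKM against 13.9 and 6.22 FPKM in EC.

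**Figure D4:**
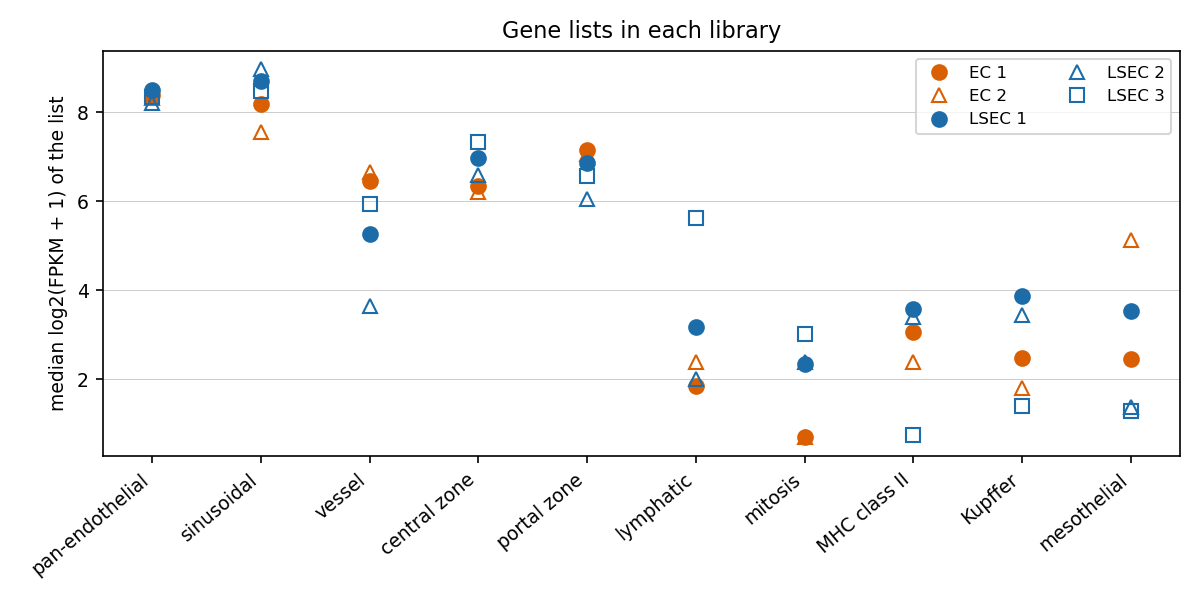
Median log2(FPKM + 1) of 10 gene lists in each library (vertical axis), with EC in orange and LSEC in blue. The vessel list is lowest in LSEC library 2 (3.65), the sinusoidal list lowest in EC library 2 (7.57), and both EC libraries lie at 0.70 for the mitosis list. Of its 20 genes, 12 passed the filter through LSEC alone, so the mitosis medians were fixed in part by the filter.

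In the Kit pathway, of 24 genes tested, Kit was called higher in LSEC and Src, a cytoplasmic tyrosine kinase, higher in EC. Of all genes, 0.598% were called higher in LSEC and 0.994% higher in EC. The median log2 difference of the list was -0.05. Src was at 1.64 and 2.76 FPKM in EC and at 0.925, 0.319 and 0.871 FPKM in LSEC, low in both. It passed the filter through EC alone, so its difference was fixed in part by the filter. Its call was lost in 5 of its 13 alternatives. The ligand Kitl (stem cell factor) was at 57.1 and 63.0 FPKM in EC and at 46.6, 20.8 and 48.2 FPKM in LSEC. Ligand and receptor thus had their non-overlapping higher values in opposite sorts, with only the receptor called (Kitl log2 difference 0.72, limma adjusted p 0.508). Gab1, a docking adaptor downstream of receptor kinases, was at 10.96 and 10.4 FPKM in EC and at 19.9, 19.6 and 16.99 FPKM in LSEC.

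In the VEGF and angiopoietin system 0 of 15 genes were called (median -0.27). Vegfc, the ligand of Flt4, was at 121 and 138 FPKM in EC and at 56.4, 1.76 and 69.1 FPKM in LSEC, while its receptor Flt4 was at 300 and 179 FPKM and at 494, 638 and 333 FPKM. Neither ligand nor receptor overlapped between the sorts, in opposite directions, and neither passed the test. Of 14 Notch genes 0 were called (median 0.20); the ligand Jag1 was at 53.5 and 123 FPKM in EC and at 25.5, 2.10 and 60.1 FPKM in LSEC, and Lfng, a glycosyltransferase that modifies Notch receptors, at 22.0 and 20.9 FPKM and at 46.7, 51.6 and 66.1 FPKM. Among 20 BMP and TGF-beta genes (median 0.24), 1 was called higher in EC, where 0.994% of all genes were: Bmper, a secreted BMP-binding protein. It was at 18.1 and 20.4 FPKM in EC against 7.13, 2.42 and 9.97 FPKM in LSEC. Its call was lost with a pseudocount of 0.1 (limma adjusted p 0.521) and with quantile normalization (limma adjusted p 0.0551). Id1, a target gene of BMP signalling, was at 262 and 235 FPKM in EC and at 121, 63.6 and 128 FPKM in LSEC, without passing the test.

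Angiocrine factors gave 1 call in 23, Dkk3 (median -0.39), higher in LSEC, where 0.598% of all genes were called. Bmp2, which controls hepatocyte hepcidin, overlapped between the sorts (252 and 97.3 FPKM against 454, 654 and 218 FPKM). Edn1, the vasoconstrictor endothelin 1, was at 132 and 176 FPKM in EC and at 31.4, 1.22 and 90.3 FPKM in LSEC. Coagulation genes gave 1 call in 18, Plau (median 0.07), also higher in LSEC and against the same 0.598% of all genes. Plat, the tissue plasminogen activator, was at 22.0 and 54.9 FPKM in EC and at 4.18, 0.381 and 18.3 FPKM in LSEC. The 2 plasminogen activators were therefore on opposite sides, with Plau called and Plat not (limma adjusted p 0.0720). Junction and caveolar genes gave 2 calls in 21, Gja1 and Jup (plakoglobin), both higher in LSEC, where 0.598% of all genes were called. Of the list, 9 did not overlap with EC higher, where 13.3% of all genes did not (median 0.22). Jup was at 18.5 and 16.3 FPKM in EC and at 29.0, 74.1 and 48.0 FPKM in LSEC. Its call was lost with quantile normalization (limma adjusted p 0.0619).

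Of 36 endothelial transcription factors, 2 were called, both higher in EC, where 0.994% of all genes were. The median was 0.03. Tcf15, a basic helix-loop-helix factor, was at 6.19 and 4.84 FPKM in EC and at 1.11, 0.0401 and 0.422 FPKM in LSEC (log2 difference 2.15, SE 0.26, limma adjusted p 0.000110). It was called in the 15 alternatives that tested it, those without either EC library included, and fell under the filter of 5 FPKM. Gata6 was at 1.97 and 3.86 FPKM in EC and at 1.19, 0.265 and 0.303 FPKM in LSEC (log2 difference 1.31, limma adjusted p 0.0332), far below its mean of 77.2 FPKM in cBEC. Its call was lost with quantile normalization (limma adjusted p 0.0565). Leukocyte adhesion genes gave 1 call in 17, Cd34 (median 0.26), and shear-response genes 1 in 15, Cyp1b1 (median 0.22). Both were higher in EC, against the same 0.994% of all genes. Chemokine genes gave 1 in 20, Ackr4 (median -0.24), higher in LSEC, where 0.598% of all genes were called. Basement membrane (17 tested, median -0.12), MHC class II (11 tested, median -0.05), interferon-response (27 tested, median 0.17) and immediate early genes (26 tested, median 0.48) gave 0 calls each. For MHC class II, LSEC library 3 was the lowest of the 5 libraries in 9 of 11 genes.

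Mitosis genes were low in all 5 libraries. Of the 20 tested, 12 had both EC libraries under 1 FPKM and passed the filter through LSEC alone, so that they had to differ, and no count over the list is read against all genes. The 6 with both EC libraries at 1 FPKM or more include Ccna2 (cyclin A2), at 3.31 and 2.67 FPKM in EC and at 7.52, 7.43 and 17.3 FPKM in LSEC. Cdk1, the kinase that drives entry into mitosis, was at 3.62 and 3.34 FPKM in EC and at 6.82, 3.74 and 6.18 FPKM in LSEC. Neither overlapped, and LSEC library 2 was close to the EC libraries in Cdk1. Birc5 (survivin), a chromosomal passenger protein and 1 of the 12 that passed through LSEC alone, was called. It was at 0.494 and 0.202 FPKM in EC and at 5.16, 7.13 and 9.05 FPKM in LSEC (log2 difference -2.57, SE 0.65, limma adjusted p 0.0477). Its difference was fixed in part by the filter, and its call was lost in 12 of 16 alternatives. The fit limited to the 4 endothelial groups called 10 of the 20 genes, a count that the filter also shaped. Mki67, the Ki-67 antigen of cycling cells, was at 0.580 and 0.590 FPKM in EC and at 4.61, 4.76 and 10.9 FPKM in LSEC. It did not pass the test (log2 difference -2.20, limma adjusted p 0.231). It is also 1 of the 12 that passed through LSEC alone, so its difference was fixed in part by the filter. Summed over the 20 genes, a choice that the filter shaped, EC libraries reached 24.5 and 26.1 FPKM and LSEC libraries 83.8, 84.6 and 169 FPKM. Over all 22 listed genes, without the filter, the sums were 26.2 and 24.6 FPKM in EC and 85.6, 85.4 and 171 FPKM in LSEC. For the 20 genes, the sums were 357 to 366 FPKM in blood, 116 to 136 FPKM in KC and 16.4 and 323 FPKM in HSC. After PH the sums were 21.8 to 23.3 FPKM in EC and 21.5 to 45.6 FPKM in LSEC, which overlapped. The part of other cells in these sums was not tested. Genes of DNA replication had 6 of 20 without overlap higher in LSEC (11.9% of all genes), 0 called and a median of -0.18. Of these 20, 5 had both EC libraries under 1 FPKM and passed the filter through LSEC alone, so the 6 are not read as a result.

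**Figure D5:**
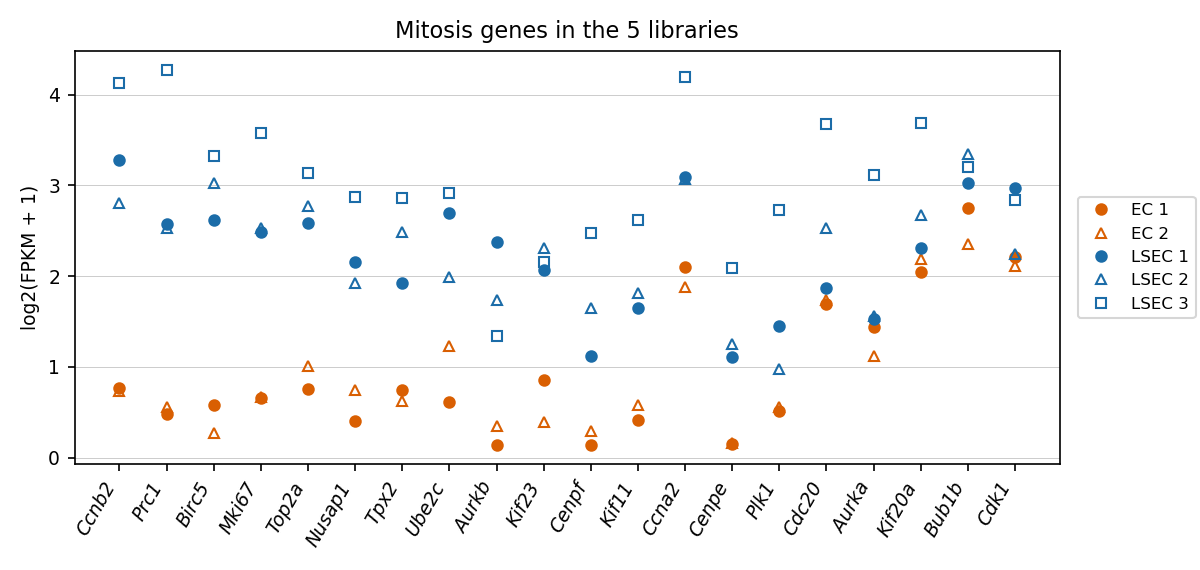
The 20 tested mitosis genes, ordered by size of the difference, with log2(FPKM + 1) on the vertical axis and 1 symbol for each library. Every LSEC library (blue) lies above both EC libraries (orange) for the genes drawn, of which 12 passed the filter through LSEC alone.

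Markers of other liver cells differed between single libraries. Kupffer markers summed to 159 and 72.4 FPKM in EC and to 566, 286 and 109 FPKM in LSEC, against a mean of 35133 FPKM in KC, with 0 of 17 tested called. LSEC library 1 was the highest in these, and it was also the highest in the erythroid sum (469 FPKM against 8.08 to 9.15 FPKM in the others), above every normal sort's mean outside LSEC (highest in HC, 115 FPKM). Dendritic cell markers summed to between 595 and 807 FPKM in the 5 libraries, mostly through Bst2 and Zbtb46, against 1405 FPKM in blood and 479 FPKM in KC. Platelet markers summed to between 44.9 and 207 FPKM, mostly through Clec1b, which also stands among the sinusoidal markers. Stellate markers summed to 163 and 381 FPKM in EC and to 129 to 163 FPKM in LSEC, against 22394 FPKM in HSC, with 0 of 15 called. Fibroblast markers, which include Cd34, summed to 172 and 361 FPKM in EC and to 42.9, 10.9 and 95.5 FPKM in LSEC, against 3240 FPKM in Thy1, and 1 of 6 was called, Cd34. Of all genes, 0.994% were called higher in EC. Mesothelial markers gave 2 calls in 7, Upk3b and Msln, both higher in EC and both highest in EC library 2. Msln was at 3.39 and 34.1 FPKM in EC and at 0.0390 to 2.88 FPKM in LSEC. The count of 2 became 1 with a pseudocount of 0.1 or with no filter. It became 0 with the filter of 5 FPKM or with quantile normalization. Of the 7, 1 passed the filter through EC alone and was not called. Hepatocyte (3 tested), cholangiocyte (5), T cell (5), B cell (5), NK cell (2), neutrophil (3), dendritic cell (4), erythroid (2), platelet (5) and mast cell or progenitor markers (3) gave 0 calls. The part of these cells in the differences between EC and LSEC was not tested.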

How the data were processed

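RNA sequencing of sorted mouse liver cells was deposited by the authors as 1 table of FPKM with a column for each of 55 libraries; 0 other numeric sample columns were present. The submitters' processing notes name CASAVA 1.8.2, Bowtie 1.0.0 and mm9, without roles; the counting tool is not given in the sources used here. Of 36141 rows, 1 was kept for each of 24478 symbols. FPKM are not counts, so limma 3.58.1 (R 4.3.3; trended, robust) was run on log2(FPKM + 1) for genes at 1 FPKM or more in 2 libraries, with Benjamini-Hochberg adjustment and a threshold of 0.05. The pseudocount of 1 understates differences of low genes. The contrast was fitted on the 5 libraries alone, with the spread of 27 normal libraries, and, for its difference after PH, on 13 libraries (9 residual degrees of freedom). Scripts were tested on simulated data. The members, the lists and the naming rule (the called gene, the 12 largest differences each way past the stated limits, the list members of largest difference) were chosen with earlier results of these data known. Bmx, Ephx1, Fbln5, Il33 and others named to complete counts of calls were named after their values were seen. Alternatives were other pseudocounts, filters, scalings, groups in the fit, row choice, a replicate block and each library left out. Values of 2 of the 12 named genes higher in LSEC are not reported here, and counts include them.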

Additional observations from a re-analysis of the deposited data

Results flagged for a closer look

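Serpinb2, a plasminogen activator inhibitor, was the 1 gene of 12824 tested (0.0078%) whose EC minus LSEC difference was called as changed between PH and normal liver, where 921 genes (7.18%) had an unadjusted p under 0.05. It was listed at 0.0401 and 0 FPKM in normal EC and at 0, 0.1003 and 0 FPKM in normal LSEC. After PH it was at 12.4, 5.70 and 12.9 FPKM in EC and between 0 and 0.291 FPKM in the 5 LSEC libraries, so that the PH EC libraries stood apart. None of the other libraries in the fit reached 1 FPKM. Serpinb2 thus passed the filter through PH EC alone, and its difference was fixed in part by the filter. The log2 difference of differences was 3.35 (SE 0.42, limma adjusted p 0.0208). The call was lost without normal EC library 1 (limma adjusted p 0.233), LSEC library 1 (0.0843) or LSEC library 2 (0.0986). Among normal sorts its mean was highest in KC, at 21.3 FPKM. Groups of 2 and 3 libraries are too small for a search for single outlying libraries.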

How the results depend on the processing

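The 5-library count of 1 became 0 with no filter on low values and without genes of 10 FPKM or more in hepatocytes, and ranged from 0 to 1 with single libraries left out. Without the trend and robust step it was again 1, but another gene, Snord45c, named after its values were seen. Snord45c was listed at 0 in every LSEC library and passed the filter through EC alone. The count of 189 from 10 sorts became 71 with a pseudocount of 0.1 (73.2% higher in EC, against 62.4%), 111 at 5 FPKM or more and 78 with the 4 endothelial groups alone (29.5% higher in EC, 43 genes shared), and ranged from 5 to 348 with single libraries left out, where a lone EC library was assumed to vary like the other sorts. Other alternatives gave 130 to 256. With a pseudocount of 0.1, 3 of the 24 named genes stayed called. The count of 1 for the difference after PH became 0 with a pseudocount of 0.1, 8 with no filter, 0 at 5 FPKM or more and 5 without the trend, and ranged from 0 to 8 with single normal libraries left out. The 8 without EC library 2 included Upk1b, Dmkn and Lrrn4. The log2 difference of Wnt9b ranged from -0.91 to 0.22 and that of Rspo3 from -1.32 to 0.30 with single libraries left out. Wnt9b reversed without EC library 2 (0.08) and LSEC library 3 (0.22), and Rspo3 without EC library 2 (0.30), LSEC library 1 (0.07) and LSEC library 3 (0.08). Over single genes, 1290 values kept direction and call, 193 lost a call, 43 gained one and 5 reversed. The cause was not tested.

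Whether replicate numbers pair the sorts cannot be told from so few libraries. Deviations of same-numbered EC and LSEC libraries from their sort means correlated at 0.09 (number 1) and -0.43 (number 2). With 2 EC libraries, the deviation of 1 mirrors that of the other, so these values are not separate evidence. With a replicate block the counts were 0 in the 5 libraries, 130 with 10 sorts (120 shared with 189) and 0 for the difference after PH.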
